A study of Mus musculus with 6 samples.

Results

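Microvillus structural genes were followed in bulk RNA-seq of mouse intestinal organoids, cultures of intestinal epithelium that grow as closed structures in gel. The 10 genes were picked from the 31227 genes of the table by a list of symbols, with no threshold on their values. Vil1, Espn, Pls1, Eps8 and Myo1a encode proteins of the actin core of the microvillus, and Cdhr2, Cdhr5, Ush1c, Myo7b and Anks4b encode the adhesion complex between neighbouring microvilli. All 10 passed the filter on low values, which 15503 genes passed. The 6 libraries formed 3 groups of 2: wild-type organoids (WT), organoids without functional Smad4 (Smad4 KO), and Smad4 KO organoids given 0.5 nM TGFb (Smad4 KO+TGFb). Every group grew in ENR medium, which holds EGF, the BMP inhibitor Noggin and R-spondin1, and every title carries 48 h, although the treatment protocol can also be read as TGFb for that time and then for 2 more days. Not given in the sources used here are the strain and age of the mice, the way Smad4 was inactivated and whether replicates were separate cultures, lines or animals. The p-values therefore reflect the spread between replicate libraries alone, which could be technical, and a difference in organoid line cannot be told apart from genotype. A WT group with TGFb was not analysed here.

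Each microvillus of an absorptive enterocyte is a finger of membrane around a bundle of parallel actin filaments. Villin, espin and fimbrin cross-link the bundle, EPS8 sits at its tip, and myosin-1a ties its sides to the membrane. The protocadherins CDHR2 and CDHR5 reach out from the tips and bind each other between adjacent microvilli. Inside the cell, USH1C (harmonin), ANKS4B and the motor MYO7B hold their tails, and this complex packs the microvilli into the dense array called the brush border. Smad4 joins the receptor-activated SMADs of the TGF-β and BMP pathways and enters the nucleus with them.

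Library totals ran from 40.55 to 50.7 M deposited units (M, 1e6), which are estimated counts in which a fragment was inferred to add about 4 units. No pair of replicates was alike within counting noise. Levels are given as counts per M after scaling with TMM (CPM). Epithelial markers (6 genes) summed to 6650 to 6760 CPM in WT, 9260 to 9440 in Smad4 KO and 13300 to 13400 with TGFb. Markers of fibroblasts, endothelium and leukocytes summed to at most 2.4, 0.949 and 2.92 CPM, and Col1a2, Col3a1, Dcn, Cdh5 and Kdr were at 0 in every library. Smad4 itself read 99.4 and 109 CPM in the WT libraries, 21.7 and 23.1 in those of Smad4 KO, and 25.2 and 29.5 in those with TGFb. In Smad4 KO it was 4.67-fold lower than in WT (edgeR adjusted p = 2.7e-05). Since the count covers the whole gene, it does not show how Smad4 was inactivated or where the remaining RNA came from.

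The sequence just before the start of 5 members is shown so that the promoters of the most abundant bundler (Vil1), the membrane motor (Myo1a) and both cadherins (Cdhr5 and Cdhr2), which were higher in Smad4 KO organoids, can be set beside that of Espn, which was lower. Each run holds the 120 bases that end immediately before the most upstream start in RefSeq (GRCm38.p6) or GENCODE, with the sequence from RefSeq, read 5′ to 3′ on the strand of the gene. Capitals mark a match to GTTAATNAT, the core of the site bound by HNF1 factors.
Vil1, chr1:74409256-74409375, plus strand: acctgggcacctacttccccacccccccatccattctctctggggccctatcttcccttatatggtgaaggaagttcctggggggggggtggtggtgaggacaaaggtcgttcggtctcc
Myo1a, chr10:127705050-127705169, plus strand: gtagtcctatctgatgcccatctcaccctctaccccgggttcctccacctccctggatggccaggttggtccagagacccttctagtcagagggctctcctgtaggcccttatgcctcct
Cdhr5, chr7:141276787-141276906, minus strand: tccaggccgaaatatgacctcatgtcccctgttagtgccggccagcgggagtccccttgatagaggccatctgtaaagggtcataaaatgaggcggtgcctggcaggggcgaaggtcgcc
Cdhr2, chr13:54701341-54701460, plus strand: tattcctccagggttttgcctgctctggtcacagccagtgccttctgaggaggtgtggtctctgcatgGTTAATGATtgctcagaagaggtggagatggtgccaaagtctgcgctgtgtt
Espn, chr4:152152390-152152509, minus strand: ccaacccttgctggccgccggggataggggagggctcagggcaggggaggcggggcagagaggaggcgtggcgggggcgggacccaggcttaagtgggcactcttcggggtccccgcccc

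The Espn stretch was 75% G or C, against 60% for Vil1, 59.2% for Myo1a and Cdhr5, and 52.5% for Cdhr2. This content was not computed over all promoters, and which start of Espn the organoids use was not measured. Any tie between G or C content and the direction of change was not tested. Windows of 300 bases, from 250 bases before to 50 after a start, were searched on both strands for 7 short motifs. The search covered 10 such RefSeq windows of 8 members, 3 of them for Espn. Myo7b, on chromosome 18, was left out of the search, and Eps8 had no window. GTTAATNAT was found in the Cdhr2 window, 54 bases before the RefSeq start, and in 0.801% of all 32851 windows. TTTATGG, a CDX-type motif, was found in 1 Espn window, at another start than the one shown, and in 2.75% of all windows. The other motifs were in 0 of the 10 windows: the HNF4-type CAAAGTCCA, held by 0.475% of all windows, the CDX-type TTTATTG, held by 4.6%, the GATA-type AGATAA, held by 11.2%, the TEAD-type GGAATG, held by 14.7%, and the SRF-type CCATATTAG, held by 0.103%. A match is a run of letters and not a measured site, and no match says only that these letters were not in the window. Variants of these letters were not searched for, so a window without a match may still hold a site of that type.

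Smad4 KO against WT sets the genotypes side by side without added TGFb. Of the 10 genes, 7 were higher in Smad4 KO, 1 (Espn) was lower and 2 (Eps8 and Myo7b) did not pass the test, where 30.3% of all genes tested passed, 16.9% higher and 13.4% lower. The median log2 fold change was 0.50 for the 10 genes and -0.021 for all genes. Among the proteins of the actin core 3 were higher and 1 lower, and in the adhesion complex 4 were higher and 0 lower. The test was edgeR's quasi-likelihood test over all 15503 genes, with 0.05 as the limit for p adjusted by the Benjamini-Hochberg method. Over all genes 2620 were higher and 2084 lower, and with scaling by library totals alone 2125 were higher and 2926 lower. Leaving out WT replicate 1, WT replicate 2 or Smad4 KO replicate 1 left 1166, 1227 and 1387 lower. Scaling by totals set the median of all genes at -0.114 on the log2 scale.

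Vil1 (ENSMUSG00000026175, GRCm38 chromosome 1, 74409376 to 74435559, plus strand) encodes villin, which bundles and, at high calcium, severs actin filaments. Its level was 523.4 and 554.7 CPM in WT and 880.6 and 874.1 CPM in Smad4 KO, 1.63-fold higher (log2 fold change 0.70 ± 0.03 SE over 2 libraries a group, edgeR adjusted p = 2.7e-05). The genotypes did not overlap, and the WT libraries lay further apart than the Smad4 KO libraries. Myo1a (ENSMUSG00000025401, chromosome 10, 127705170 to 127720940, plus strand) encodes the motor that bridges the core to the membrane. Myo1a stood at 235.9 and 227.5 CPM in WT and at 637.4 and 609.3 CPM in Smad4 KO, 2.69-fold higher (log2 fold change 1.43 ± 0.04 SE, edgeR adjusted p = 2.8e-06). No other actin core member had as large a difference between the genotypes.

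Pls1 (ENSMUSG00000049493, chromosome 9, 95752642 to 95845311, minus strand) encodes intestinal fimbrin, also called plastin 1. It read 308.2 and 301 CPM in WT and 364.8 and 375.8 CPM in Smad4 KO, 1.22-fold higher (log2 fold change 0.28 ± 0.04 SE, edgeR adjusted p = 0.0019). The difference was small and the groups did not overlap. Espn (ENSMUSG00000028943, chromosome 4, 152120331 to 152152371, minus strand) encodes espin, a bundler that lengthens parallel actin bundles. Its WT libraries read 55.08 and 65.42 CPM and its Smad4 KO libraries 36.19 and 36.97 CPM, 1.65-fold lower (log2 fold change -0.72 ± 0.10 SE, edgeR adjusted p = 0.0025). Espn was the least abundant of the 10 genes, and on the log2 scale the gap between its WT replicates was the widest between replicates of any member. Eps8 (ENSMUSG00000015766, chromosome 6, 137477245 to 137654876, minus strand) encodes an actin capping and bundling protein of microvillus tips. Eps8 was at 204.4 and 205.6 CPM in WT and at 188.7 and 191.7 CPM in Smad4 KO, and did not pass (log2 fold change -0.11, 95% interval -0.22 to 0.01, edgeR adjusted p = 0.14). With scaling by library totals alone it was called lower (log2 fold change -0.20, edgeR adjusted p = 0.023).

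In the adhesion complex, the cadherins come first. Cdhr5 (ENSMUSG00000025497, chromosome 7, 141269083 to 141276786, minus strand) encodes the mucin-like protocadherin of the pair. It measured 135.6 and 140.7 CPM in WT and 373.3 and 371.1 CPM in Smad4 KO, 2.69-fold higher (log2 fold change 1.43 ± 0.04 SE, edgeR adjusted p = 2.8e-06). Cdhr2 (ENSMUSG00000034918, chromosome 13, 54701461 to 54736662, plus strand), its binding partner across the gap, measured 263.5 and 258.8 CPM in WT and 404.4 and 404.1 CPM in Smad4 KO, 1.55-fold higher (log2 fold change 0.63 ± 0.04 SE, edgeR adjusted p = 6.8e-05). Both cadherins were higher in each Smad4 KO library than in each WT library.

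The cytoplasmic members differed among themselves. Anks4b (ENSMUSG00000030909, chromosome 7, 120173858 to 120185586, plus strand) encodes an ankyrin repeat scaffold that joins harmonin to the motor. Its level was 79.22 and 81.8 CPM in WT and 139.6 and 147.4 CPM in Smad4 KO, 1.78-fold higher (log2 fold change 0.83 ± 0.05 SE, edgeR adjusted p = 0.00012). Ush1c (ENSMUSG00000030838, chromosome 7, 46195350 to 46238503, minus strand) encodes harmonin, the PDZ scaffold bound by the cadherin tails. Ush1c was at 119 and 120.4 CPM in WT and at 150.5 and 158.1 CPM in Smad4 KO, 1.29-fold higher (log2 fold change 0.37 ± 0.06 SE, edgeR adjusted p = 0.0038). Myo7b (ENSMUSG00000024388, chromosome 18, 31959234 to 32036961, minus strand) encodes the motor that carries the complex to the tips. Its libraries read 414.8 and 433.6 CPM in WT and 428.5 and 402.3 CPM in Smad4 KO and overlapped between the genotypes (log2 fold change -0.03, 95% interval -0.14 to 0.08, edgeR adjusted p = 0.66). In this comparison each of the 8 called members kept its call in all 14 alternative fits, including those that left out 1 library.

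**Figure D1:**
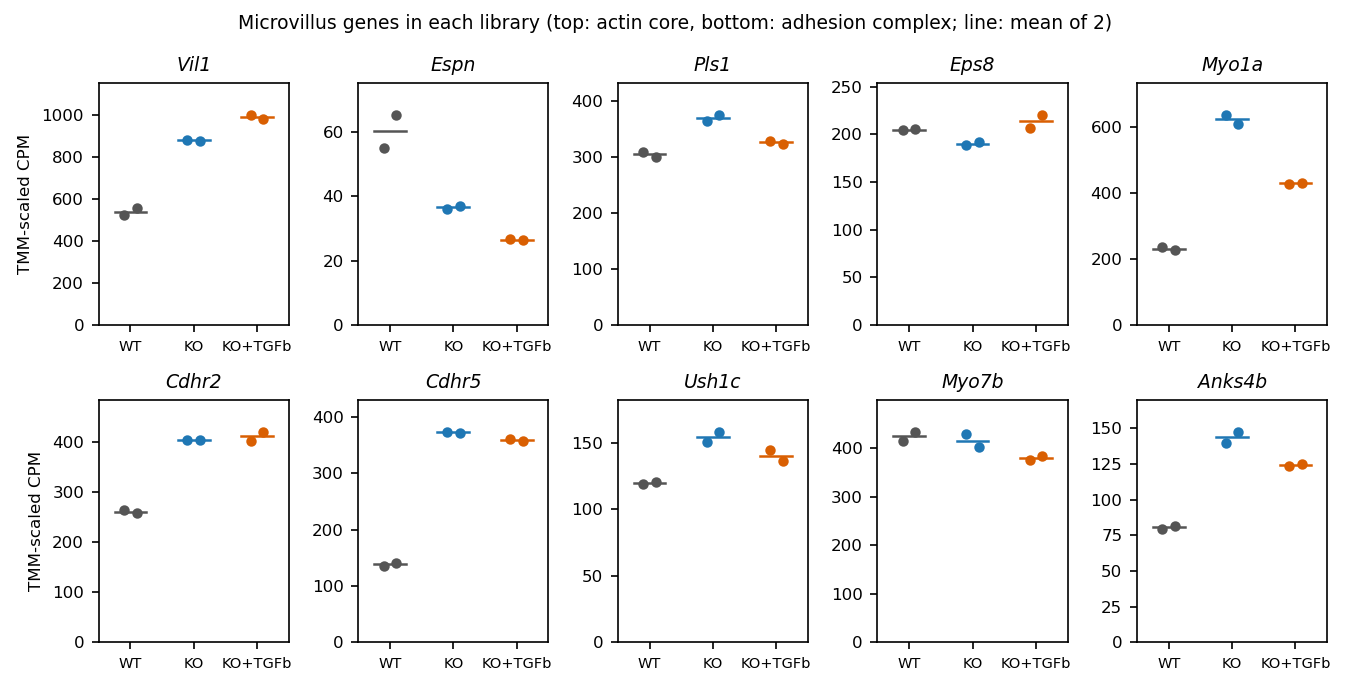
Level of each of the 10 genes in each library (CPM on linear axes that start at 0 and differ between genes; 1 point per library, line at the mean of 2, groups in colour). Espn steps down from WT (55.08 and 65.42 CPM) to Smad4 KO+TGFb (26.72 and 26.31 CPM), while Vil1 steps up from 523.4 and 554.7 to 999.9 and 981.3 CPM.

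Smad4 KO+TGFb against Smad4 KO asks what TGFb changed in Smad4 KO organoids. It shares the Smad4 KO libraries with the comparison above, so the values of both are set side by side and not counted as separate support. Of the 10 genes, 1 (Vil1) was higher, 4 (Myo1a, Espn, Pls1 and Anks4b) were lower and 5 did not pass, where 16.3% of all genes tested passed, 7.78% higher and 8.48% lower. The median log2 fold change was -0.13 for the 10 genes and -0.008 for all genes. Myo1a fell 1.45-fold, to 428.4 and 429.3 CPM (log2 fold change -0.54 ± 0.04 SE, edgeR adjusted p = 0.00027), a level between those of WT and Smad4 KO. Myo1a was the member that kept its call in all 14 alternative fits, with log2 fold changes from -0.57 to -0.49.

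The calls of the other 4 were lost when single libraries were left out. Vil1 was 1.13-fold higher with TGFb, at 999.9 and 981.3 CPM (log2 fold change 0.18 ± 0.03 SE, edgeR adjusted p = 0.015). Without Smad4 KO replicate 1, Smad4 KO replicate 2, TGFb replicate 1 or TGFb replicate 2 its adjusted p in edgeR was 0.0664, 0.0766, 0.082 and 0.0562. Villin RNA was thus highest in the 2 treated libraries, with a step from Smad4 KO that was smaller than the step between the genotypes. Espn fell a further 1.38-fold, to 26.72 and 26.31 CPM (log2 fold change -0.46 ± 0.10 SE, edgeR adjusted p = 0.024), and had an adjusted p of 0.085, 0.0984, 0.0948 and 0.107 without the same libraries in turn. Pls1 fell 1.13-fold, to 328.5 and 324.1 CPM (log2 fold change -0.18 ± 0.04 SE, edgeR adjusted p = 0.018), and had an adjusted p of 0.087 without Smad4 KO replicate 2, 0.0774 without TGFb replicate 1 and 0.0956 without TGFb replicate 2. Both bundlers stood lower in each treated library than in each Smad4 KO library. Anks4b, at 123.4 and 125.2 CPM (log2 fold change -0.21 ± 0.05 SE, edgeR adjusted p = 0.048), lost its call in 11 of the 14 alternative fits, among them each fit that left out a library, where its adjusted p reached 0.205.

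Cdhr2 and Cdhr5 stayed near their Smad4 KO levels. Cdhr2 was at 402.6 and 420.3 CPM with TGFb (log2 fold change 0.03, 95% interval -0.06 to 0.11, edgeR adjusted p = 0.72). Cdhr5 was at 360.1 and 356.5 CPM (log2 fold change -0.05, 95% interval -0.14 to 0.04, edgeR adjusted p = 0.40). Neither interval reached the change of Myo1a. Ush1c (144.6 and 136 CPM), Myo7b (376.6 and 384.8 CPM) and Eps8 (206.5 and 220.8 CPM) did not pass either, with edgeR adjusted p = 0.16, 0.11 and 0.064. Each of these 3 had treated libraries that did not overlap the Smad4 KO libraries, lower for Ush1c and Myo7b and higher for Eps8. Eps8 passed as higher in 4 of the 14 alternative fits.

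**Figure D2:**
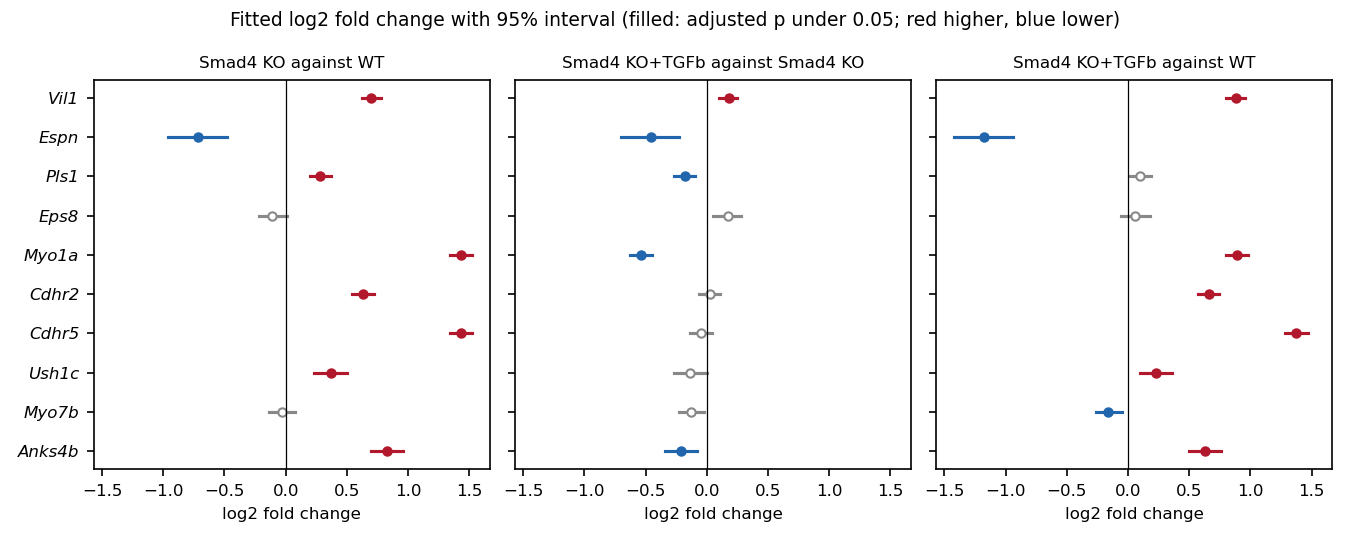
Log2 fold change of each of the 10 genes in the 3 comparisons (points, filled where the adjusted p was under 0.05, red for higher and blue for lower, with the 95% interval of the fitted model as bars). Myo1a and Cdhr5 share a log2 fold change of 1.43 between the genotypes and part with TGFb, at -0.54 and -0.05.

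Smad4 KO+TGFb against WT shares libraries with both comparisons above. Here 6 of the 10 genes were higher, 2 were lower and 2 did not pass, where 39.7% of all genes tested passed, 20.7% higher and 19% lower. The median was 0.43, against -0.021 for all genes. The higher genes were Cdhr5 (2.59-fold), Myo1a (1.85-fold), Vil1 (1.84-fold), Cdhr2 (1.58-fold), Anks4b (1.54-fold) and Ush1c (1.17-fold), with edgeR adjusted p from 2.4e-06 for Cdhr5 to 0.018 for Ush1c. Espn was 2.27-fold lower (log2 fold change -1.18 ± 0.10 SE, edgeR adjusted p = 2e-04), and each WT library was above both treated libraries. Myo7b was 1.11-fold lower (log2 fold change -0.16 ± 0.04 SE, edgeR adjusted p = 0.031), a call lost when any of the 4 libraries was left out (adjusted p 0.0513 and 0.144 for the WT replicates 1 and 2, and 0.144 and 0.0811 for the TGFb replicates). The call of Ush1c was lost when WT replicate 1, WT replicate 2 or TGFb replicate 1 was left out (adjusted p 0.0736, 0.0613 and 0.0998). Pls1 (log2 fold change 0.10, 95% interval 0.01 to 0.19) and Eps8 (0.06, 95% interval -0.06 to 0.18) did not pass (edgeR adjusted p = 0.071 and 0.37). Pls1 passed with DESeq2's size factors (adjusted p = 0.0465) and with DESeq2 (0.014).

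Levels of different genes were compared per kilobase of merged exons (CPM per kb). In WT the order of mean levels was Vil1 (152), Pls1 (78.3), Myo7b (64.1), Cdhr2 (63.2), Myo1a (62.4), Cdhr5 (50.5), Ush1c (31.1), Anks4b (20.6), Eps8 (16.6) and Espn (7.28). Myo7b, Cdhr2 and Myo1a overlapped with their neighbours in that order, while the others were apart. In Smad4 KO Myo1a (168) and Cdhr5 (136) followed Vil1, above Cdhr2 (97.9) and Pls1 (95.2). Under TGFb they changed places, Cdhr5 at 131 and Myo1a at 115 CPM per kb. Vil1 was first (247 in Smad4 KO and 279 with TGFb) and Espn last (4.42 and 3.21) in each group. With the length of the longest transcript in place of merged exons these 2 genes kept their places, and Eps8, whose merged exons span 12.355 kb, moved up. Espn has 20 annotated transcripts, and a shorter one taken as its length would raise its level per kb. Which of them were present was not measured, so its place per kb rests on the length taken. The summed level of all 10 genes was 540.5 and 551.2 CPM per kb in WT, 906.9 and 899.8 in Smad4 KO and 856.4 and 853.8 with TGFb.

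The make-up of the 3 actin bundlers moved with these levels. Villin RNA took 63.2% and 64.7% of their summed CPM per kb in WT, 71.6% and 70.9% in Smad4 KO, and 76.3% and 76.2% with TGFb. Espin RNA took 2.85% and 3.27%, then 1.26% and 1.29%, then 0.875% and 0.877%. The 3 groups were apart from each other for both genes. Per unit of Espn RNA, Vil1 stood at 22.1 and 19.8 in WT, 56.7 and 55.1 in Smad4 KO and 87.2 and 86.9 with TGFb, as a ratio of CPM per kb. With the longest transcript of each gene as its length these ratios were 14 and 12.5, 36 and 35, and 55.3 and 55.1, and the share of Espn was 4.54% and 5.19%, 2.02% and 2.06%, and 1.4% and 1.4%, an alternative chosen after seeing the data. The groups were apart on either length, while the size of each share and ratio rests on the length taken. The membrane motor was measured against the core in the same way. The ratio of Myo1a to Vil1 was 0.431 and 0.392 in WT, 0.692 and 0.666 in Smad4 KO and 0.41 and 0.418 with TGFb, so that the treated libraries lay within the WT range while both genes were above their WT levels. No test was run on ratios, which are given as values.

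In the adhesion complex the balance between the cadherins crossed 1. Cdhr5 to Cdhr2 was 0.776 and 0.82 in WT, 1.39 and 1.38 in Smad4 KO and 1.35 and 1.28 with TGFb. Myo7b to Cdhr2 was 0.982 and 1.04 in WT, 0.661 and 0.621 in Smad4 KO, and 0.583 and 0.571 with TGFb. Ush1c to Anks4b, the scaffolds, was 1.52 and 1.49 in WT, 1.09 and 1.09 in Smad4 KO, and 1.19 and 1.1 with TGFb. The motor and harmonin were thus scarcer, relative to the cadherins and to ANKS4B in RNA, in each Smad4-deficient library than in each WT library.

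**Figure D3:**
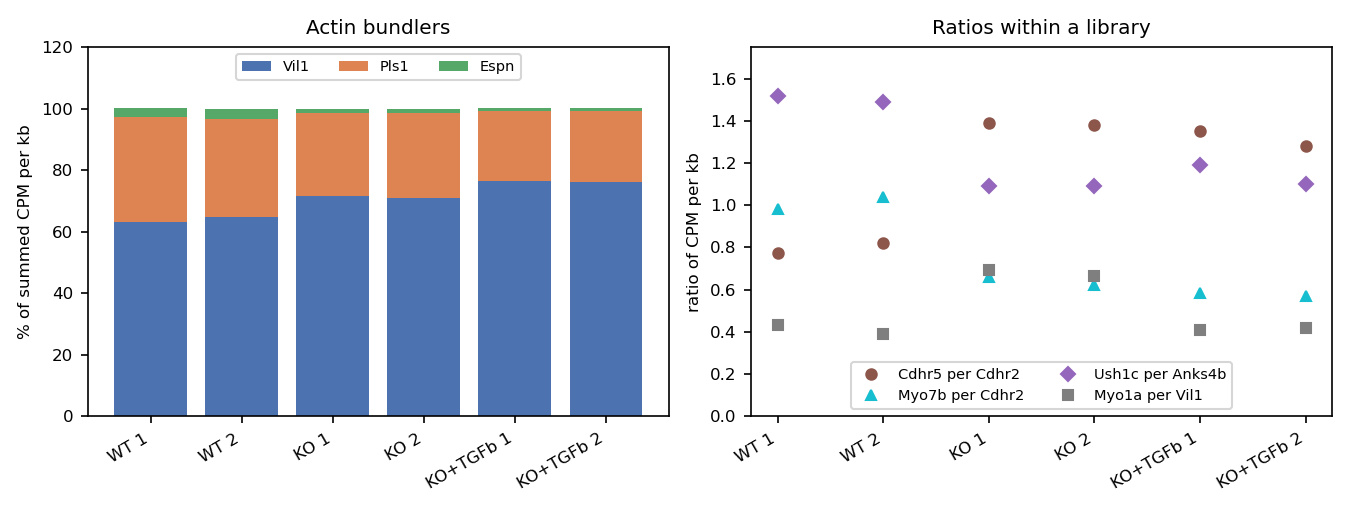
Left, share of villin (Vil1), fimbrin (Pls1) and espin (Espn) RNA in their summed CPM per kb, 1 bar per library; right, ratios of CPM per kb between members, 1 point per library. Cdhr5 per Cdhr2 is below 1 in WT (0.776 and 0.82) and above 1 in the other 4 libraries, and Myo1a per Vil1 is high in Smad4 KO alone.

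Other genes of the brush border and terminal web, the actin and keratin belt beneath the microvilli, were read as a list of 22, of which 21 were tested. Counts of this and later lists are to be read beside the shares over all genes tested. These were 16.9% higher and 13.4% lower between the genotypes, and 7.78% and 8.48% with TGFb. In Smad4 KO against WT 15 of the 21 were higher and 1, the cytoplasmic actin Actg1, was lower, with a median log2 fold change of 0.39. Krt20, a keratin of differentiated enterocytes, read 76.9 and 80.6 CPM in WT and 240 and 246 CPM in Smad4 KO (log2 fold change 1.62 ± 0.05 SE, edgeR adjusted p = 5.8e-06). Slc9a3r1, the scaffold that links ezrin to membrane proteins, rose from a mean of 204 to 386 CPM (log2 fold change 0.92, edgeR adjusted p = 3.2e-05). Tmigd1, an adhesion protein placed at the base of microvilli, averaged 0.388 CPM in WT, 9.42 in Smad4 KO and 24.1 with TGFb, and was named after its values were seen. Calml4, the light chain of MYO7B and so the nearest partner of the 10 genes, read 183 and 193 CPM in WT, 207 and 225 in Smad4 KO, and 195 and 185 with TGFb. It was called higher in Smad4 KO (log2 fold change 0.20, edgeR adjusted p = 0.049), but not without WT replicate 1, WT replicate 2, Smad4 KO replicate 2 or either TGFb library (adjusted p 0.19, 0.0833, 0.197, 0.0682 and 0.0665). Calml4 was thus close to its WT level, though both Smad4 KO libraries were above both WT libraries, where those of Myo7b overlapped. It was also named after its values were seen. With TGFb, 8 of the 21 were higher and 5 lower than in Smad4 KO (3 lower without Smad4 KO replicate 1 or without TGFb replicate 1), and the median was 0.08. Myo1c, a membrane motor of the same class as Myo1a, was at 144 and 157 CPM in Smad4 KO and at 328 and 322 CPM with TGFb (log2 fold change 1.11, edgeR adjusted p = 8.2e-05), while Myo1a fell.

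Paralogs of the 10 genes, 27 listed and 22 tested, were 11 higher in Smad4 KO against WT, where Lcp1 was among those lower, and 9 higher and 2 lower (Scin and Lcp1) with TGFb. Without WT replicate 2 the number higher between the genotypes was 7. With TGFb, 1 was lower without Smad4 KO replicate 1 or TGFb replicate 1. Vill, a villin-like gene, read 4.28 and 4.84 CPM in WT, 3.77 and 2.7 in Smad4 KO, and 45.2 and 46.6 with TGFb, 14.2-fold above Smad4 KO (log2 fold change 3.83 ± 0.18 SE, edgeR adjusted p = 7.5e-05). Gsn, the severing protein gelsolin, read 50.6 and 53.4, then 126 and 124, then 243 and 243 CPM. Capg, the capping protein of the same family, read 12.7 and 11.1, then 56.5 and 55.8, then 137 and 146 CPM. Vill, Gsn and Capg were thus highest in the treated libraries, and Scin, at 37.3 and 46.2, 123 and 128, and 61.7 and 59.5 CPM, was highest in Smad4 KO. The plastins parted too: Lcp1, best known from leukocytes, read 189 and 192 CPM in WT, 91 and 61 in Smad4 KO, and 26 and 38.7 with TGFb, with leukocyte markers summed at most at 2.92 CPM. Its call with TGFb (log2 fold change -1.23, edgeR adjusted p = 0.016) was lost without Smad4 KO replicate 1 (adjusted p 0.0593) or TGFb replicate 1 (adjusted p 0.0666). Pls3, the plastin of many solid tissues, was 1.9-fold higher with TGFb than in Smad4 KO (edgeR adjusted p = 0.00027), where Pls1 was lower. Lcp1, Pls3 and Scin were named after their values were seen.

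Genes that carry apical proteins to the membrane (17, all tested) were 7 higher and 0 lower in Smad4 KO against WT and 3 higher and 0 lower with TGFb, where 0 were higher without Smad4 KO replicate 1, TGFb replicate 1 or TGFb replicate 2 and 1 was without Smad4 KO replicate 2. Myo5b, the motor of apical recycling vesicles, was among the 3 with the smallest p between the genotypes (log2 fold change 0.33). Transcription factors of intestinal differentiation (18, all tested) were 7 higher and 2 lower between the genotypes, and 3 higher and 6 lower with TGFb (1 higher without Smad4 KO replicate 2, 1 higher and 2 lower without TGFb replicate 1, and 3 lower without TGFb replicate 2). Hnf4g, a nuclear receptor of the enterocyte, read 68.8 and 69 CPM in WT, 215 and 227 in Smad4 KO, and 117 and 113 with TGFb. Its step between the genotypes was 1.68 on the log2 scale and its step with TGFb -0.94 (edgeR adjusted p = 5.9e-06 and 0.00014), and like Myo1a it lay between WT and Smad4 KO under TGFb. Other factors of the list differed from it. The same steps were 2.74 and -0.36 for Creb3l3, and 0.6 and 0.2 for Klf5, which was highest under TGFb.

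Markers of enterocytes that are not among the 10 genes were read beside them. Of 24, 20 were higher and 2 lower in Smad4 KO against WT (median log2 fold change 1.31), and 0 were higher and 22 lower with TGFb (median -0.92). They summed to 7930 CPM in each WT library, 24300 to 24500 in Smad4 KO, and 15700 to 15800 with TGFb, with 0 of them at 0. Stem cell markers of the crypt base (10) summed to 7390 to 7500, 4460 to 4470 and 3040 to 3080 CPM, and 9 were lower in Smad4 KO. Other lineages fell too between the genotypes, with 6 of 6 Paneth, 7 of 9 enteroendocrine and 5 of 8 goblet markers lower and 0, 0 and 2 higher. Tuft cells also carry villin and fimbrin, and their 10 markers summed to 21 to 23.2 CPM in WT, 12.2 to 15.7 in Smad4 KO and 11 to 12.3 with TGFb, with Il25 and Gnat3 at 0 in every library. At these low levels 7 were tested, of which 1 was lower and 0 higher between the genotypes, and 0 passed with TGFb against Smad4 KO. Fetal and regenerative epithelium markers (9) summed to 355 to 387, 968 to 987 and 4290 to 4360 CPM. Of the 8 tested, 6 were higher and 1 lower between the genotypes, and 7 were higher and 0 lower with TGFb. Clu (means of 28.4, 241 and 2030 CPM) and Krt7 (252, 469 and 1250 CPM) made up much of these sums. In bulk RNA fewer cells of a type and less RNA per cell cannot be told apart, and the part of these shifts in the levels of the 10 genes was not tested. Where the enterocyte list had a median of -0.92 with TGFb, the 10 genes had -0.13. Vil1 was 1.13-fold higher, a call lost when single libraries were left out. The enterocyte list was uneven. Sis went from 2770 and 2760 CPM in Smad4 KO to 1180 and 1190 with TGFb, and Apoa1 from 1620 and 1650 to 1530 and 1480. Against WT, 12 of the 24 were higher and 8 lower with TGFb (median 0.33), beside 20.7% and 19% of all genes tested. Of the 6 epithelial markers, 5 were higher and 0 lower with TGFb (median 0.43).

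**Figure D4:**
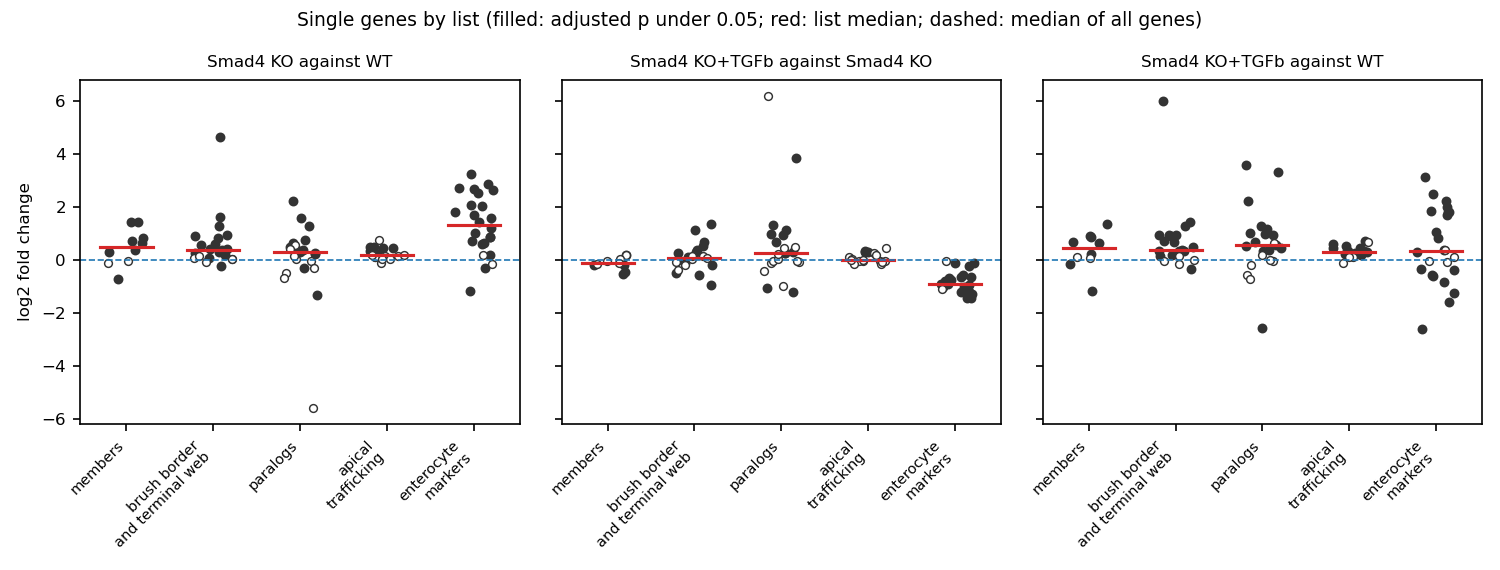
Log2 fold change of single genes of 5 lists in the 3 comparisons (filled points passed at an adjusted p under 0.05, red bars are list medians, the dashed line is the median of all genes). With TGFb the enterocyte markers have a median of -0.92 and the 10 microvillus genes -0.13.

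The 10 genes did not form a single profile over the 6 libraries. Likeness was measured as the root mean square difference between log2 CPM values, each gene centred on its own mean. The nearest members were Pls1 and Ush1c (0.0597), then Vil1 and Cdhr2 (0.101) and Cdhr2 and Anks4b (0.108). Espn and Cdhr5 were the farthest apart (1.12). Among 10705 other genes with at least 5 CPM, the profiles nearest to the mean of the 10 genes were Sidt2 (0.0168), Sema4a (0.0199), Ccdc88c (0.0282), Ppt1 (0.0286) and Tmbim6 (0.0289). Those nearest to Vil1 were Vat1 (0.0351), Itpk1 (0.0422) and Adap1 (0.0437), and those nearest to Cdhr5 were Idh1 (0.0389), Hsd17b11 (0.0433) and Coro2a (0.0538).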

How the data were processed

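RNA-seq was read from the estimated counts per Ensembl gene that the authors deposited as whole numbers, 1 column per library (0 columns could not be mapped). The tools in the submitters' processing notes are HISAT2 2.1.0, StringTie 1.3.3b, SAMtools 1.9 and FastQC 0.11.9, with build GRCm38 (mm10). Not given in the sources used here are the annotation release, the strand setting and the rounding step. Of values from 1 to 24, 42.3% were multiples of 4 (25% if spread evenly), so about 4 units per fragment were inferred. Other spacings were not compared, so the number of units per fragment is uncertain. Without the strand setting, antisense partners could not be told apart; exons of Vil1 (1.4%, Usp37) and Ush1c (3.1%, Gm9860) overlap the opposite strand.

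Genes passed filterByExpr, TMM scaling and edgeR 4.0.16's quasi-likelihood test (2-sided, 6 libraries in 1 fit, 3 residual degrees of freedom, R 4.3.3), tested on simulated data. DESeq2 1.42.0, limma 3.58.1, other scalings and filters, a replicate block and each library left out were alternatives. Positions and exon lengths come from GENCODE vM21, promoters from RefSeq. The members and lists were chosen with earlier results of these data known. Named beside the members were up to 3 genes of a list with the smallest adjusted p and the nearest profiles; others are marked as chosen after seeing values. One paralog is not reported here.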

Additional observations from a re-analysis of the deposited data

How the results depend on the processing

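Every fit was repeated under 14 alternatives, of which scaling by library totals alone was chosen after seeing the data. Over the 10 genes and 3 comparisons, 380 of 420 values kept direction and side of the threshold, 30 lost their call, 7 gained one and 3 turned. Those 3, all close to 0 and not called, were Myo7b between the genotypes (from -0.076 to 0.015 with a library left out, positive at 0.002 when WT replicate 2 was the one) and Cdhr2 with TGFb (from -0.009 to 0.057). Among genes of the other lists, Myh9 between the genotypes turned with library totals alone (-0.021), Slc9a3r1 with TGFb ran from -0.03 to 0.057 with a library left out, and Calml4 with TGFb against WT from -0.022 to 0.053, and to -0.032 with library totals alone. With a library left out, genes lower in Smad4 KO than in WT numbered from 1166 (WT replicate 1) to 1867, and with TGFb from 656 (TGFb replicate 1) to 1108 were higher and from 848 (TGFb replicate 1) to 1196 lower; members higher with TGFb numbered from 0 to 1 and lower from 1 to 3, and members lower against WT from 1 to 2. With DESeq2, limma-voom, values divided by 4 or library totals alone 2 members were higher with TGFb, Eps8 being the second, and with library totals alone 2 were lower between the genotypes, Eps8 again. The cause was not tested.

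No pairing by replicate number was seen: deviations of equal numbers correlated at -0.0795, -0.0782 and 0.102 between the groups. A shared batch with a small effect could give such values, and the labels do not say whether equal numbers belong together. With the replicate block, 2385 genes were higher and 1799 lower between the genotypes (7 and 1 members), 1018 and 1135 with TGFb (1 and 3 members, Anks4b at an edgeR adjusted p of 0.0682), and 2999 and 2668 against WT (6 and 1 members, Myo7b at 0.0566). Espn had the lowest counts of the members, and 2 libraries per group limit every test.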
